A study of Mus musculus with 6 samples.

Results

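The 10 genes described here mark macrophages, the tissue-resident phagocytes of the body. They comprise the 3 chains of complement C1q (C1qa, C1qb, C1qc), the secreted enzyme Lyz2, the lysosomal protein Cd68, the receptors Csf1r, Adgre1 and Mrc1, and the signalling adaptors Tyrobp and Fcer1g. They were chosen by gene name, and all 10 had a row among the 11955 rows of the deposited table, every one typed as protein-coding. Total RNA was sequenced from mouse samples labelled as chondrocytes, 3 of genotype Eldr cKI and 3 of genotype control, and the study asks about chondrocyte senescence and the long noncoding RNA Eldr. The labels spell out neither cKI nor the promoter or cell type that drives it, and give no age or sex, and they do not say that the 3 samples of a group came from separate animals. The permutation p-values below therefore reflect the spread between these samples, which may be technical. The limma p-values of the main fit rest on a spread fitted across all genes in these samples, not on each gene's own spread. The level of Eldr itself was not analysed here.

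Macrophages engulf particles and dying cells, and in joints they lie in the synovial lining, while healthy cartilage matrix holds few or none. Growth and survival of the lineage depend on Csf1r, the receptor for the cytokines CSF1 and IL34. C1q, assembled from A, B and C chains, is the recognition molecule of the classical complement pathway and is made largely by macrophages. Tyrobp and Fcer1g carry the tyrosine-based activation motif through which receptors without a signalling tail of their own, such as Fc receptors, recruit the kinase Syk.

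All values are FPKM, fragments per kilobase of transcript, scaled to the mapped fragments of the library, a scale on which levels of different genes in a library can be compared. The libraries are shallow by an estimate that takes the most common low value of FPKM times transcript length as 1 fragment. It puts their depth at 103363, 69111 and 239144 fragments in Eldr cKI replicates 1, 2 and 3. In control replicates 1, 2 and 3 it gives 167566, 64167 and 84349. These depths are rough, since only 23.4% (Eldr cKI replicate 3) to 37.2% (control replicate 2) of low values came to whole fragments, to a tolerance of 0.05. The FPKM of all rows summed to 188859, 238885 and 239593 in Eldr cKI, against 237284, 227181 and 430062 in control, so a gene's FPKM and its share of that total can order the libraries differently. Between 37.0% and 75.0% of all rows were above 0 in a library, and a 0 in the table is read only as a listed value, not as absence. Chondrocyte markers were near 0, with 8 of 20 having a row and a summed 3.99, 2.06 and 10.7 FPKM in Eldr cKI, against 12.8, 10.8 and 5.83 FPKM in control. Of the defining cartilage genes, Col2a1 was listed at 0 in all Eldr cKI libraries and at 0.956, 4.52 and 0 FPKM in control. Acan had no row in the deposited table. Cardiomyocyte markers, with 11 of 12 having a row, summed to 1751, 5398 and 2319 FPKM in Eldr cKI and 1199, 2542 and 1821 FPKM in control, so the labelled cell type is not the one whose markers lead.

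Macrophage marker genes were detected in both genotypes, and 0 of the 10 passed the test between them (limma, Benjamini-Hochberg adjusted p under 0.05), against 0.0278% of the 10772 rows tested. The marker that carried most of the signal was Lyz2. It stood at 106 to 242 FPKM in 5 libraries and was listed at 0 in Eldr cKI replicate 3, the library with the largest estimated depth. That estimate had the lowest share of low values at whole fragments (23.4%). Control replicate 1 had more rows above 0 (75.0% against 70.2%). Summed over the 10 genes, FPKM was 257, 373 and 12.6 in Eldr cKI replicates 1, 2 and 3, against 228, 214 and 332 in control replicates 1, 2 and 3. Eldr cKI replicate 3 was thus far below every other library, while Eldr cKI replicate 1 lay within the range of the controls and Eldr cKI replicate 2 above it. As a share of the FPKM of all rows, the 10 genes held 0.136%, 0.156% and 0.00526% in Eldr cKI, against 0.0962%, 0.0941% and 0.0771% in control. On that scale Eldr cKI replicates 1 and 2 were both above every control and Eldr cKI replicate 3 below every control. On the log2(sum + 1) scale the group means were 6.78 in Eldr cKI and 7.99 in control, a difference of -1.21 (two-sided exact permutation test, p = 0.9, n = 3 in each, where the smallest possible p is 0.1). Without Eldr cKI replicate 3 the difference was 0.29 (exact permutation test, p = 0.5). In bulk RNA of this kind, fewer macrophages and less of these RNAs per macrophage cannot be told apart.

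**Figure D1:**
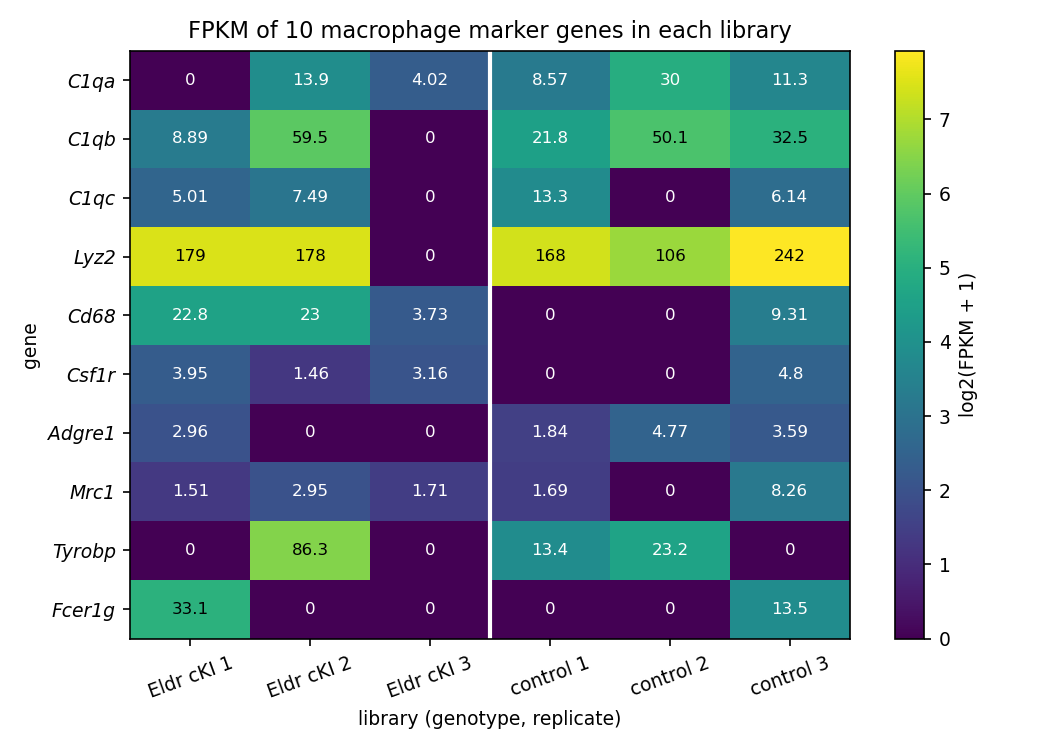
FPKM of the 10 macrophage marker genes (rows) in the 3 Eldr cKI libraries (left of the white line) and the 3 control libraries (right); each cell prints the FPKM and its colour is log2(FPKM + 1). Lyz2 is the brightest row in 5 libraries and is 0 in Eldr cKI replicate 3, and 19 of the 60 values are 0.

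Of the 60 member values, 19 were listed at 0. The number of members above 0 was 8, 8 and 4 in Eldr cKI replicates 1, 2 and 3, against 7, 5 and 9 in control replicates 1, 2 and 3 (difference of means -0.33, two-sided exact permutation test, p = 1.0, n = 3 in each). Detection over the whole table ran otherwise: Eldr cKI replicate 3 had 70.2% of all rows above 0 and 4 members, whereas Eldr cKI replicate 1 had 37.0% of rows and 8 members. The difference of means was 1 without Eldr cKI replicate 3 and 0.67 without control replicate 3, so its sign rests on those libraries. No member was above 0 in all 6 libraries, and 4 were in 5 of them: C1qa, C1qb, Lyz2 and Mrc1. Fcer1g was the least often detected, in 2 libraries.

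Read against the worth of a fragment, most of these values are very small numbers of molecules. With each gene's longest coding transcript in GENCODE M21 as its length, the 41 values above 0 equal between a fraction of a fragment and 37.0 fragments, and 30 of them lie under 3 fragments. Outside Lyz2 the largest was 4.48 fragments, for C1qb in Eldr cKI replicate 2. C1qa, which has a single annotated transcript of 1040 bases, came to 1.00 fragment in both Eldr cKI replicates 2 and 3, against 1.49, 2.0 and 0.993 fragments in control replicates 1, 2 and 3. Lyz2 was the exception, at 24.3 and 16.2 fragments in Eldr cKI replicates 1 and 2, against 37.0, 8.92 and 26.9 in control. Differences in the other 9 genes thus rest on a few fragments, and a gene at 0 there was below detection at this depth rather than shown to be absent.

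**Figure D2:**
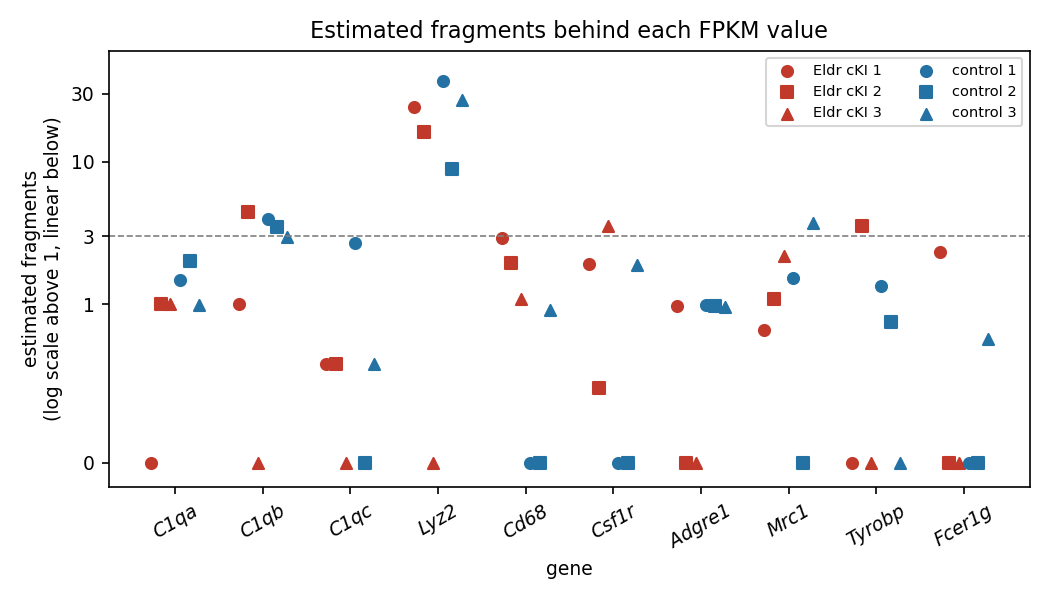
Estimated fragments behind each FPKM value (vertical axis, log scale above 1 and linear below) for the 10 genes (horizontal axis), with Eldr cKI libraries in red and control libraries in blue; the dashed line marks 3 fragments. Lyz2 lies between 8.92 and 37.0 fragments in 5 libraries and at 0 in Eldr cKI replicate 3, and no other gene exceeds 4.48.

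By their median over the 6 libraries, the genes ran from Lyz2 at 173 FPKM through C1qb at 27.2, C1qa at 9.95, Tyrobp at 6.68, Cd68 at 6.52, C1qc at 5.57, Adgre1 at 2.40, Csf1r at 2.31 and Mrc1 at 1.70 to Fcer1g at 0. The Lyz2 values above 0, of 106 to 242 FPKM, exceeded the highest value of any other member, 86.3 FPKM of Tyrobp in Eldr cKI replicate 2. Every pair of neighbours further down this order overlapped in their values across libraries. Lyz2 made up 69.6% and 47.8% of the members' summed FPKM in Eldr cKI replicates 1 and 2, against 73.5%, 49.4% and 73.0% in control replicates 1, 2 and 3.

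The C1q genes lie side by side on the minus strand of chromosome 4 of GRCm38, within 18675 bases. C1qb (ENSMUSG00000036905.8) spans 136880129 to 136886187, C1qc (ENSMUSG00000036896.5) spans 136889804 to 136893065 and C1qa (ENSMUSG00000036887.5) spans 136895917 to 136898803. C1qb, which encodes the B chain, was at 8.89, 59.5 and 0 FPKM in the Eldr cKI libraries 1, 2 and 3, against 21.8, 50.1 and 32.5 FPKM in control. Its highest and its lowest values were both in Eldr cKI, and the groups overlapped (limma: log2 fold change -2.01 ± 1.36 SE, Benjamini-Hochberg adjusted p 0.959). Leaving out Eldr cKI replicate 3 gave a fold change of -0.47, and leaving out replicate 2 of that genotype gave -3.43.

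C1qa, for the A chain, was at 0, 13.9 and 4.02 FPKM in Eldr cKI, against 8.57, 29.97 and 11.3 FPKM in control. Eldr cKI replicate 2 lay above 2 of the 3 controls, so these groups overlapped too (limma: log2 fold change -1.87 ± 1.43 SE, adjusted p 0.959), and with 1 library left out in turn the fold change ran from -2.78 (Eldr cKI replicate 2 left out) to -0.83 (Eldr cKI replicate 1 left out). C1qc, for the C chain, was at 5.01, 7.49 and 0 FPKM in Eldr cKI, against 13.3, 0 and 6.14 FPKM in control. In limma its log2 fold change came to -0.33 ± 1.45 (SE), with an adjusted p of 0.999, and it was 0.61 without Eldr cKI replicate 3 and 0.47 without control replicate 1. The 3 chains are used in equal numbers in the C1q protein, which is not a measure of their RNA. In RNA, C1qb had the highest FPKM of the 3 in 5 libraries, an order that rests on 1.00 to 4.48 fragments of C1qb. In Eldr cKI replicate 3 C1qb was at 0, and of the 3 chains C1qa alone was above 0. Their summed FPKM was 13.9, 80.9 and 4.02 in Eldr cKI replicates 1, 2 and 3, against 43.7, 80.1 and 50.01 in control (difference of mean log2(sum + 1) -1.64, two-sided exact permutation test, p = 0.4, n = 3 in each). Eldr cKI replicates 1 and 3 lay below all controls, and Eldr cKI replicate 2 just above them.

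Lyz2 (ENSMUSG00000069516.8, chromosome 10, 117277331 to 117282321, minus strand) encodes lysozyme M, a bacterial cell wall hydrolase abundant in macrophages and neutrophils. It was at 179, 178 and 0 FPKM in the Eldr cKI libraries 1, 2 and 3, against 168, 106 and 242 FPKM in control replicates 1, 2 and 3. The first 2 Eldr cKI values lay inside the range of the controls in FPKM. As shares of the FPKM of all rows, Lyz2 stood at 0.0947%, 0.0747% and 0% in Eldr cKI, against 0.0707%, 0.0465% and 0.0563% in control, and there the first 2 Eldr cKI values lay above all controls. In those 5 libraries Lyz2 ranked between 45th and 175th of all rows. The estimated worth of 3 fragments in Eldr cKI replicate 3 is 9.53 FPKM for this gene. Among 49 rows that, like Lyz2, were at 106 FPKM or more in each of the other 5 libraries, Lyz2 was the single row at 0 in Eldr cKI replicate 3, and the lowest of the remaining 48 was at 74.7 FPKM there. This set of rows was chosen after the values were seen, and its cut is the lowest Lyz2 value of those 5 libraries. Just under the cut, 2 globin genes were also at 0 in Eldr cKI replicate 3. They were Hba-a1, at 88.9 FPKM or more in the other 5 libraries, and Hba-a2, at 86.9 FPKM or more.

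In limma the log2 fold change of Lyz2 was -2.36 ± 1.13 (SE), with a 95% interval of -4.57 to -0.15, an unadjusted p of 0.0363 and an adjusted p of 0.959. Lyz2 was the only one of the 10 members with an unadjusted p under 0.05, a threshold that 2.34% of all rows in the fit met. This limma p moved with the setting. With all 6 libraries it was 0.102 without the mean-variance trend, 0.189 with array quality weights, 0.0680 with the replicate block and 0.0623 with quantile normalization. It was 0.00353 with a pseudocount of 0.1, 0.0276 with a mean FPKM of at least 5, 0.0361 without a filter and 0.000447 after rescaling. The authors' deposited p for Lyz2 was 0.402. Without Eldr cKI replicate 3 the log2 fold change of Lyz2 was 0.14 (limma, adjusted p = 0.990). Lyz2 has a close neighbour and near-identical copy, Lyz1, which had no row in the deposited table, and the labels do not state how reads were shared between such copies.

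RefSeq promoter windows on GRCm38.p6, from 250 bases before to 50 bases after the start, were given for 6 members: C1qb, C1qc, Lyz2, Cd68, Mrc1 and Fcer1g. Those of Lyz2, the member with the most fragments, and of the adjacent C1qb and C1qc are shown so that a reader can see the start regions of the genes these values rest on. Capitals mark GAGGAA or its reverse complement TTCCTC, a purine-rich core bound by the myeloid factor encoded by Spi1. They run 5′ to 3′ on the minus strand, at chr10:117282223-117282522 for Lyz2, chr4:136886151-136886450 for C1qb and chr4:136892865-136893164 for C1qc.
Lyz2: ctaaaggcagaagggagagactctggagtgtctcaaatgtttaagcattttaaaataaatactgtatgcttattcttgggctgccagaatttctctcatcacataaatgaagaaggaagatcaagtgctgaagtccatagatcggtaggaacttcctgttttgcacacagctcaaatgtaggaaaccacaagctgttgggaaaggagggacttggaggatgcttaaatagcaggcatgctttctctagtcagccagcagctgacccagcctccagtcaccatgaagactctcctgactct
C1qb: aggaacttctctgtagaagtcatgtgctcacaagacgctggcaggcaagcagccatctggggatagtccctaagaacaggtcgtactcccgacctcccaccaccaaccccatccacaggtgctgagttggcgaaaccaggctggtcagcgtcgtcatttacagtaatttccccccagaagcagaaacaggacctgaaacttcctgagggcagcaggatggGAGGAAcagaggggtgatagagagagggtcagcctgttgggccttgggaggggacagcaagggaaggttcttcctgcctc
C1qc: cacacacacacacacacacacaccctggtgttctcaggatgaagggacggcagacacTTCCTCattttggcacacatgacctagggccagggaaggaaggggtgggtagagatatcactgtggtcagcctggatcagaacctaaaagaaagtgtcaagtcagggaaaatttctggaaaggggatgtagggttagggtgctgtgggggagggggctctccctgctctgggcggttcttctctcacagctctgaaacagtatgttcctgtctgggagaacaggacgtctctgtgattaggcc

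GAGGAA on either strand was present in the windows of C1qb (1 match), C1qc (1), Cd68 (2) and Mrc1 (3), and in none of Lyz2 or Fcer1g. Of 32851 promoter windows of the same length, 28.3% held it. TTGCNNAA on either strand, part of the motif of the C/EBP factors, was found in the Cd68 window alone of the 6, and in 10.8% of all windows. By their letters, a match of this motif cannot overlap a match of GAGGAA. These are matches of letters only.

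Csf1r, the receptor on which the lineage depends (ENSMUSG00000024621.15, chromosome 18, 61105572 to 61132149, plus strand), was at 3.95, 1.46 and 3.16 FPKM in Eldr cKI, against 0, 0 and 4.80 FPKM in control. It was above 0 in every Eldr cKI library and in control replicate 3, which was the highest of all. In limma its log2 fold change came to 1.04 ± 1.41 (SE), with an adjusted p of 0.994. It was 1.89 with control replicate 3 left out, 0.62 with control replicate 1 or 2 left out and 2.91 with a pseudocount of 0.1 in place of 1. The rows of Csf1r and Adgre1 have other spans than in GENCODE M21, though on the same strand and overlapping them. Exons of Csf1r overlap those of Hmgxb3 on the opposite strand, and use of strand in counting is not stated, so reads of the overlap cannot be told apart.

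Adgre1 (ENSMUSG00000004730.14, chromosome 17, 57358686 to 57483529, plus strand), an adhesion receptor whose protein is the standard surface antigen of mouse macrophages, was at 2.96, 0 and 0 FPKM in Eldr cKI, against 1.84, 4.77 and 3.59 FPKM in control. It was thus above 0 in all controls and in 1 Eldr cKI library, and each of these 4 values equals about 1 fragment, between 0.981 and 0.998. In limma its log2 fold change came to -1.42 ± 1.41 (SE), with an adjusted p of 0.959, and with libraries left out in turn it ran from -2.08 to -1.08. Mrc1 (ENSMUSG00000026712.3, chromosome 2, 14229392 to 14332057, plus strand), the endocytic mannose receptor, was at 1.51, 2.95 and 1.71 FPKM in Eldr cKI, against 1.69, 0 and 8.26 FPKM in control. The controls held both its highest and its lowest value. The log2 fold change of Mrc1 was 0.04 (limma, SE 1.44, adjusted p = 0.999), and it was -0.16 with Eldr cKI replicate 2 left out, -0.02 with control replicate 1 left out and -0.74 with control replicate 2 left out.

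Cd68 (ENSMUSG00000018774.13, chromosome 11, 69664213 to 69666153, minus strand), a heavily glycosylated lysosomal membrane protein, was at 22.8, 23.0 and 3.73 FPKM in Eldr cKI, against 0, 0 and 9.31 FPKM in control. It had the largest positive value of the 10 genes, a log2 fold change of 2.68 with a 95% interval of -0.15 to 5.51, and did not pass (limma, unadjusted p = 0.0637, adjusted p = 0.959). Control replicate 3 lay above Eldr cKI replicate 3, so the groups overlapped. With libraries left out in turn the log2 fold change ran from 2.12 to 3.80, the top value with control replicate 3 left out, and a pseudocount of 0.1 gave 4.80. The values behind this fold equal 2.90, 1.96 and 1.10 fragments in Eldr cKI and 0, 0 and 0.965 in control.

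Tyrobp (ENSMUSG00000030579.10, chromosome 7, 30413760 to 30417585, plus strand) was at 0, 86.3 and 0 FPKM in Eldr cKI, against 13.4, 23.2 and 0 FPKM in control. The highest value of Tyrobp, in Eldr cKI replicate 2, came to 3.56 fragments of its short transcript of 597 bases. In limma its log2 fold change came to -0.66 ± 1.44 (SE), with an adjusted p of 0.999, and the sign turned when Eldr cKI replicate 1 (0.41), Eldr cKI replicate 3 (0.41) or control replicate 2 (0.23) was left out. Fcer1g (ENSMUSG00000058715.11, chromosome 1, 171229572 to 171234365, minus strand) was at 33.1, 0 and 0 FPKM in Eldr cKI, against 0, 0 and 13.5 FPKM in control. The 2 adaptors were never above 0 in the same library. In limma Fcer1g had a log2 fold change of 0.41 ± 1.43 (SE) and an adjusted p of 0.999, and the fold change was -1.29 without Eldr cKI replicate 1 and -0.23 without control replicate 1 or control replicate 2.

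Across the 10 genes, 4 log2 fold changes were positive and 6 negative; their median was -0.50, beside -0.04 over all rows in the fit. For 0 of the 10 did the 2 groups fail to overlap, against 3.78% of all rows. With standard errors of 1.13 to 1.45, each 95% interval spans several-fold differences, and these data do not show that the genotypes are alike. In the authors' deposited table the smallest p among the members was 0.121, for Cd68, and the q there was 0.704.

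**Figure D3:**
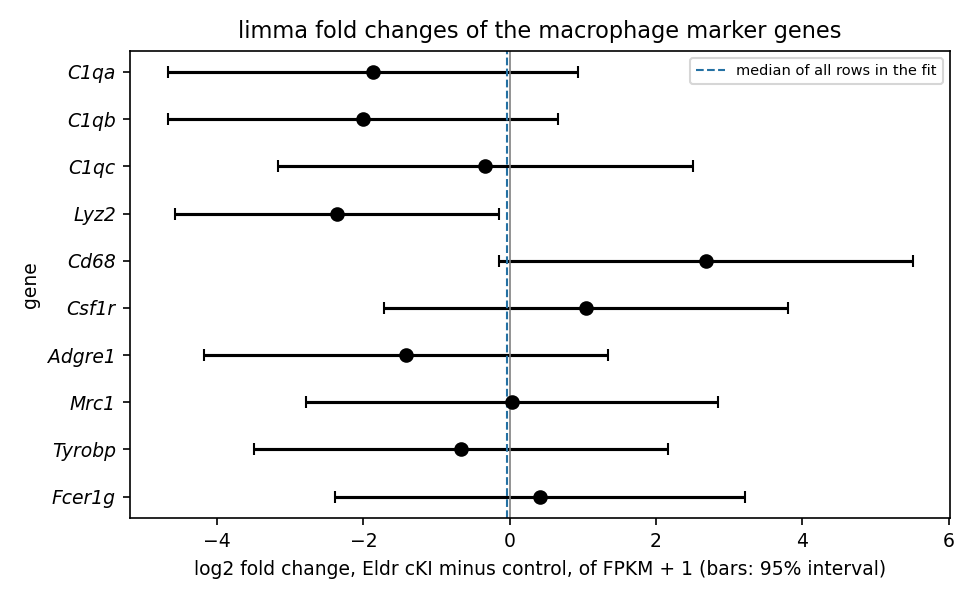
limma log2 fold changes of FPKM + 1, Eldr cKI minus control (horizontal axis), for the 10 genes (vertical axis), with 95% intervals as bars and the median of all rows in the fit as a dashed line. The interval of Lyz2, -4.57 to -0.15, lies below 0 before adjustment, and the other 9 intervals cross 0. Without the mean-variance trend, not drawn, the interval of Lyz2 was -5.21 to 0.49 and that of Cd68 was 0.20 to 5.16.

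Other genes of the same pathways gave no passing member either. Of 34 genes around complement C1q, 25 had a row and 22 entered the fit, where 0 passed in either direction (limma), 8 had positive and 14 negative log2 fold changes, and the median was -0.67. C3, the central component on which all complement routes converge, was at 10.4, 39.1 and 31.1 FPKM in Eldr cKI, against 24.9, 1.38 and 203 FPKM in control. C1s1, a protease that acts downstream of C1q, was at 3.09, 44.9 and 42.0 FPKM in Eldr cKI, against 3.80, 0 and 27.9 FPKM in control. Serping1, the C1 inhibitor, was listed at 0 in all Eldr cKI libraries and at 12.7, 13.4 and 31.3 FPKM in control (limma, unadjusted p = 0.00361, adjusted p = 0.811). It was the only gene of the 22 with an unadjusted p under 0.05 (limma), which 2.34% of all rows in the fit met. C8a and C8b, chains of the membrane attack complex, were above 0 in control replicate 3 alone, at 61.1 and 108 FPKM. That library also held 11879 FPKM of hepatocyte markers, all 12 of them above 0, against 91.2 to 237.6 FPKM in the Eldr cKI libraries and 160 and 608 FPKM in control replicates 1 and 2. Liver makes most circulating complement components, and the part of these hepatocyte markers' level in the list's values was not tested.

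A list of 44 genes around the Tyrobp and Fcer1g adaptors holds partner receptors and kinases, and also inhibitory receptors, phosphatases and other signalling proteins. Of these, 21 had a row and 16 entered the fit, with 0 passing and 0 at an unadjusted p under 0.05 (limma). Their log2 fold changes were positive for 9 and negative for 7, with a median of 0.34. Fcgr2b, the inhibitory Fc receptor, was the highest of them and above 0 throughout, at 59.5, 22.1 and 6.25 FPKM in Eldr cKI, against 23.0, 10.03 and 61.2 FPKM in control. Cd300c2, an activating receptor, was at 15.2, 11.3 and 0 FPKM in Eldr cKI and at 0 in all controls (limma, adjusted p = 0.959). Pirb, an inhibitory immunoglobulin-like receptor, was at 0, 3.24 and 0 FPKM in Eldr cKI, against 1.33, 3.93 and 7.95 FPKM in control. The kinase Lyn was at 2.38, 0 and 1.02 FPKM in Eldr cKI, against 13.8, 0 and 0 FPKM in control, and the ubiquitin ligase Cbl at 1.21, 1.17 and 9.92 FPKM, against 7.53, 1.26 and 0.429 FPKM in control. Syk itself was at 2.06, 0 and 0.616 FPKM in Eldr cKI, against 0, 0 and 1.27 FPKM in control. The groups of Lyn, Cbl and Syk overlapped.

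The Csf1r axis, its ligands and the transcription factors of the lineage, had 17 of 26 genes with a row and 16 in the fit, of which 0 passed and 0 had an unadjusted p under 0.05 (limma). Of these 16, 10 log2 fold changes were positive and 6 negative, with a median of 0.40. Csf1, a ligand of the receptor, was at 0 in all Eldr cKI libraries and at 2.20, 0 and 2.24 FPKM in control. Spi1, the lineage's master transcription factor, was at 0, 5.37 and 0 FPKM in Eldr cKI, against 2.20, 0 and 0 FPKM in control, and Cebpb at 0, 60.3 and 3.09 FPKM, against 48.4, 0 and 0 FPKM. Cebpa was at 29.8, 0 and 0 FPKM in Eldr cKI, against 1.13, 0 and 4.48 FPKM in control. Maf was at 1.32, 3.50 and 5.92 FPKM in Eldr cKI, against 0.813, 0 and 11.3 FPKM in control. Grb2, an adaptor of receptor tyrosine kinases, was at 14.9, 3.08 and 23.6 FPKM in Eldr cKI, against 22.8, 0 and 0 FPKM in control, and Ets2 at 0, 3.03 and 14.3 FPKM, against 6.30, 3.26 and 0 FPKM. Csf1, Syk and Spi1 are named here for their place in the pathway, after their values were seen.

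Among 61 further macrophage and myeloid genes, 41 had a row and 39 entered the fit, with 0 passing, 15 positive, 24 negative and a median of -0.52 (limma). Ctss, a lysosomal protease of antigen-presenting cells, was at 14.0, 0 and 0 FPKM in Eldr cKI, against 21.5, 57.4 and 26.1 FPKM in control, without overlap (limma, unadjusted p = 0.00854, adjusted p = 0.959). Hmox1, the heme-degrading enzyme, was at 5.53, 16.5 and 0 FPKM in Eldr cKI, against 37.3, 26.5 and 33.9 FPKM in control, again without overlap (limma, unadjusted p = 0.0462, adjusted p = 0.959). Apoe, a lipid carrier made by macrophages and by liver, was at 76.1, 68.2 and 12.4 FPKM in Eldr cKI, against 87.2, 139 and 813 FPKM in control (limma, unadjusted p = 0.0271, adjusted p = 0.959). The groups of Apoe did not overlap either, as was so for 3.78% of all rows in the fit. These 3 were the only genes of the 39 with an unadjusted p under 0.05 (limma), which 2.34% of all rows in the fit met. The highest Apoe value was in control replicate 3, the library with the most hepatocyte marker FPKM. Lgals3, a galectin not confined to macrophages, was at 5.21, 21.3 and 55.0 FPKM in Eldr cKI, against 24.2, 13.5 and 6.38 FPKM in control, and Arg1 at 4.34, 3.25 and 0 FPKM, against 11.9, 0 and 52.8 FPKM. Ctss, Hmox1, Apoe and Arg1 had their lowest value, or a joint lowest of 0, in Eldr cKI replicate 3, as did Lyz2. Lgals3 had its highest value there. Ctss, Hmox1 and Apoe are the genes with a low p and were lower in Eldr cKI. A lowest value in that genotype thus follows in part from singling them out.

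Markers of other blood cells bear on how far the 10 genes mark macrophages, since Lyz2, Tyrobp and Fcer1g are also expressed in neutrophils, and the adaptors in natural killer and mast cells. Neutrophil markers, 4 of 12 with a row, summed to 13.6, 93.1 and 35.6 FPKM in Eldr cKI, against 22.8, 0 and 8.54 FPKM in control, so control replicate 2, with 106 FPKM of Lyz2, had none above 0. T and NK cell markers had 2 of 13 with a row and at most 2.43 FPKM in a library, mast cell and basophil markers 1 of 9 and at most 1.84, dendritic cell markers 1 of 8 and at most 1.57, B cell markers 3 of 7 and at most 10.9, and osteoclast markers 4 of 11 and at most 10.4. Their part in the values of the members was not tested.

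Erythroid markers were low in the same library as the macrophage markers. With 6 of 9 genes having a row, they summed to 437, 665 and 52.1 FPKM in Eldr cKI replicates 1, 2 and 3, against 418, 776 and 977 FPKM in control. The globin genes Hba-a1, Hba-a2 and Hbb-bt were listed at 0 in Eldr cKI replicate 3 and above 60 FPKM in each of the other libraries. The globin gene Hbb-bs was also lowest in Eldr cKI replicate 3 but not at 0 there, at 46.9 FPKM. It stood at 85.6 to 320 FPKM in the other libraries. Slc4a1 went the other way, above 0 in Eldr cKI replicate 3 alone, at 5.20 FPKM. Alas2 was above 0 in Eldr cKI replicate 2 alone. Endothelial markers, 9 of 10 with a row, summed to 6.76, 31.3 and 7.34 FPKM in Eldr cKI, against 31.6, 21.1 and 23.9 FPKM in control. Fibroblast markers, with all 8 having a row, stood at 124, 143 and 134 FPKM in Eldr cKI, against 82.3, 75.5 and 60.7 FPKM in control. Of the genes on these cell type lists, 0 passed the test (limma). Of those in the fit, 6 of 12 hepatocyte, 3 of 6 erythroid and 1 of 4 neutrophil genes had an unadjusted p under 0.05, besides Lyz2. Of all rows in the fit, 2.34% did. Whether the blood content of the sampled tissue has a part in the level of the macrophage markers was not tested.

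**Figure D4:**
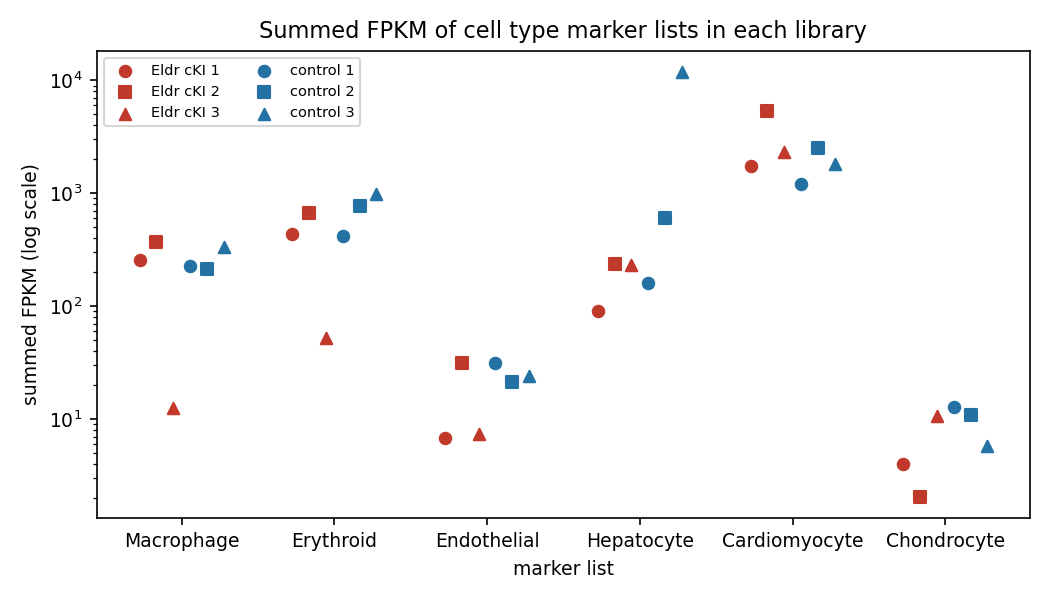
Summed FPKM (vertical axis, log scale) of 6 cell type marker lists (horizontal axis) in each library, with Eldr cKI in red and control in blue. Eldr cKI replicate 3 (red triangle) is the lowest library for macrophage (12.6 FPKM) and erythroid markers (52.1 FPKM), and control replicate 3 (blue triangle) is the highest for hepatocyte markers (11879 FPKM).

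None of the 5 rows closest to the members in their pattern over the 6 libraries was on a macrophage or myeloid list. The share of such genes among all rows compared was not counted. With only 5 rows taken, this cannot show whether macrophage genes share the pattern. Likeness was measured as the mean absolute difference, in log2(FPKM + 1) centred on each row's own mean, from the mean profile of the 10 members, over 3600 rows with a mean FPKM of at least 5. The 5 closest were Myl3 (0.32), Prdx5 (0.33), Pyurf (0.33), Pgam2 (0.35) and Rpl34 (0.35), against a median of 1.72 over the eligible rows. All 5 had their lowest value in Eldr cKI replicate 3: Myl3, a ventricular myosin light chain, was at 137, 234 and 39.0 FPKM in Eldr cKI, against 95.3, 136 and 118 FPKM in control. The members themselves lay between 0.75 (C1qc and Adgre1) and 2.25 (Tyrobp) from their own mean profile. The 5 rows were picked as the closest, so their distances are small by the choice and are not to be read against those of the members. Their lowest value in Eldr cKI replicate 3 follows from the choice as well. The members' centred mean profile was -1.80 there, against -0.16 to 0.87 in the other libraries.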

How the data were processed

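RNA of 6 libraries, 3 Eldr cKI and 3 control, grouped by the genotype label, was sequenced. Per the labels' protocols, either poly(A) RNA was isolated or ribosomal RNA depleted, without saying which for which library, and the kit was stranded. The submitters' processing notes name cutadapt, StringTie and HISAT2 2.0.5, and as build the human hg19, whereas the table's identifiers and loci are mouse: 11017 of 11955 rows, 8 of the 10 members among them, have the span that GENCODE M21 (GRCm38) gives. Csf1r and Adgre1 carry other identifier versions and other spans there. The unit of the 6 library columns is FPKM as deposited, per the file headers. Each row also carries the authors' deposited log2 fold change, linear fold (ratio), p-value and q-value, and group values that equal means of log2(FPKM + 1).

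limma 3.58.1 in R 4.3.3 was fitted to log2(FPKM + 1) of the 10772 rows with a mean FPKM of at least 0.5, all 10 members included, with genotype as the only term, a mean-variance trend and Benjamini-Hochberg adjustment over all rows. With a pseudocount of 1 the fold changes of low genes are understated, and the SEs come from the trend across genes. For single values per library, exact permutation tests (two-sided) were used. Depth was read from the most common low value of FPKM times length in genes with 1 transcript (tolerance 1%). That value was assumed to be 1 fragment, and fragment numbers per value are estimates that ignore isoforms. Python 3.11.15, pandas 2.3.3, numpy 2.4.6 and matplotlib 3.10.9 made the summaries and figures. The members and all gene lists were chosen with earlier results of these data known; every member was named, with up to 5 genes by mean FPKM from each of 4 pathway lists. Same-numbered libraries were checked for shared deviations (correlations -0.17, 0.03 and -0.15), which gives no pairing.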

Additional observations from a re-analysis of the deposited data

How the results depend on the processing

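The number of members past the threshold was 0 under all 14 alternatives (7 members entered the fit at a mean FPKM of at least 5, and 10 in each of the others), and the smallest adjusted p of any member was 0.291 (Lyz2, rows named mt- or Gm left out and libraries rescaled). Signs were the same in 121 of 137 member fits and turned in 16, from 5 members. The 121 include fits whose sign could not turn. Changing the filter on low values, dropping the mean-variance trend or adding the replicate block leaves a fold change as it was. The number of all rows past the threshold, 3, became 8 with a pseudocount of 0.1, 1 with a mean FPKM of at least 5, 0 without the mean-variance trend, 17 with array quality weights, 1 with quantile normalization and 5 with the replicate number as a block; leaving out each library in turn gave 0 (without Eldr cKI replicate 1 or control replicate 3) to 12 (without control replicate 1). The block changed no call of a member. The difference in log2 summed FPKM ranged from -2.10 to 0.29, and that in members above 0 from -1.33 to 1, over the same left-out libraries.

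The log2 fold change of C1qc was 0.50 with array weights, 0.14 after rescaling and -1.44 to 0.61 with 1 library left out in turn. That of Tyrobp was 1.01 with array weights and -2.81 to 0.41 with libraries left out, and that of Fcer1g was -0.31 with array weights and -1.29 to 1.70 with libraries left out. With libraries left out, Lyz2 ranged from -3.61 to 0.14, 0.14 being the value without Eldr cKI replicate 3, and Mrc1 from -0.74 to 0.87. With a pseudocount of 0.1 the fold changes were -3.00 for C1qa, -3.13 for C1qb, -3.46 for Lyz2, -3.38 for Adgre1, 0.86 for Mrc1 and -1.73 for Tyrobp. The cause of the turned signs was not tested. At these depths most member values above 0 rest on fewer than 3 fragments, and each interval spans several-fold differences. The part of depth in the width of the intervals was not tested.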
